A study of Mus musculus with 32 samples.

Results

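The 10 genes described here are *Myc*, *Mycn*, *Mycl*, *Max*, *Bcl2*, *Bcl2l1*, *Mcl1*, *Bcl2a1b*, *Bcl2l11* and *Bax*, out of 28827 genes that appear in at least 1 of the 2 RNA-seq tables. They were taken by symbol, and eCLIP peaks were assigned to them by the Ensembl gene ID that each peak carries. All 10 are in the Lin- table, and 9 are in that of CD11b+ cells, which lacks *Mycn*. Enhanced crosslinking and immunoprecipitation (eCLIP) records where an RNA-binding protein was crosslinked to RNA, here IGF2BP3, an mRNA-binding protein of fetal tissues that some leukemias express again. Libraries came from 6 Lin- eCLIP preparations (3 biological and 3 technical replicates) and 4 CD11b+ preparations (2 and 2), each with a size-matched input (smInput), and from 12 RNA-seq libraries, 3 of each genotype in each cell type.

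Lin- cells were lineage-depleted mouse bone marrow transduced with the MSCV-MLL-FLAG-Af4 retrovirus, selected with G418 and grown in a cytokine mixture that included SCF, IL-6 and FLT3. By the study's methods, the CD11b+ population was drawn with magnetic beads from the splenic tumors of mice with MLL-Af4 leukemia. The library names of all eCLIP samples begin with bm, and from which tissue the CD11b+ eCLIP cells came is not settled. All groups therefore carried the MLL-Af4 oncogene, in WT or in I3KO cells, and I3KO is a germline deletion of *Igf2bp3* exon 2 that arose in a Vav1-Cre cross. The age of the mice is not given in the labels. The methods do not say whether each Lin- culture was 1 clone or whether animals were pooled. The eCLIP labels give no genotype, and the study names the eCLIP cells WT/MLL-Af4. The comparison of WT with I3KO was not analysed here. The levels below are therefore the authors' means over 6 libraries of both genotypes, with no spread between libraries, and *Igf2bp3* itself had a mean of 2041 normalized counts in Lin- cells and 1355 in CD11b+ cells.

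MYC proteins are transcription factors that pair with MAX to bind DNA and drive growth and ribosome production. Proteins of the BCL2 family decide whether the outer mitochondrial membrane stays closed. BCL2, BCL-xL (encoded by *Bcl2l1*), MCL1 and A1 (encoded in mice by the *Bcl2a1* copies) keep it closed, BAX opens it, and BIM (encoded by *Bcl2l11*) is a BH3-only protein that counters the protective members. Leukemias driven by MLL fusions are known for high MYC and for reliance on BCL2 and MCL1.

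The cell labels were checked against fixed markers. *Mpo*, a granule enzyme of myeloid progenitors, had a mean of 101212 in Lin- and 84102 in CD11b+ cells. *Kit*, *Cd34* and *Flt3*, the other progenitor markers, all lay above the 97th percentile of the Lin- table and between the 69th and 86th percentiles of the CD11b+ table. Of the myeloid markers, *Csf1r* (7910 and 15008) and *Lyz2* (20990 and 72146) were abundant in both tables, and *Cd14* had means of 582 and 1742. *Itgam*, which encodes CD11b and defines the second population, had a mean of only 17.0 in CD11b+ cells (percentile 41.8) and is not in the Lin- table. The RNA table thus does not carry the label's defining marker at a high level, while the other myeloid markers are high. *Cd3g*, a T cell marker, had means of 1.15 and 4.87, *Cd3e* was listed only in the CD11b+ table, at 5.63, and *Cd79a*, a B cell marker, had means of 5.77 and 146. Erythroid markers summed to 221 and 930, mostly *Hbb-bt* (181 and 915), and megakaryocyte markers to 2316 and 44.7, mostly *Itga2b* (1922 and 42.9). The part of these other cells in the values below was not tested. The 2 tables were normalized separately, so a level is given as a percentile within its table, and a fall between cell types cannot be told apart from fewer cells that make the RNA.

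Most of the 10 genes were well expressed in both tables. *Myc* had a mean of 9482 normalized counts in Lin- cells (percentile 98.4) and 2331 in CD11b+ cells (percentile 92.8). *Max*, the partner of MYC, kept almost the same rank, with means of 2793 and 1798 (percentiles 90.6 and 90.1). *Mycn* and *Mycl*, MYC paralogs of restricted tissues, were far lower. The mean of *Mycn* was 183 in Lin- cells (percentile 58.6), and that of *Mycl* was 600 in Lin- (percentile 69.6) and 27.6 in CD11b+ cells (percentile 45.9).

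Of the abundant protective members, *Mcl1* ranked nearly alike in the 2 tables and *Bcl2* differed most. *Mcl1* had means of 6660 and 5975 (percentiles 97.1 and 97.7). *Bcl2* stood at 8150 in Lin- cells (percentile 98.0) and 653 in CD11b+ cells (percentile 76.2). *Bcl2l1* had means of 1435 and 794 (percentiles 81.5 and 79.2). *Bcl2a1b* was the only member that ranked markedly higher in CD11b+ cells, with means of 1.16 in Lin- and 52.7 in CD11b+ cells (percentiles 16.1 and 50.8). Its close copies *Bcl2a1a* (6.38 and 187) and *Bcl2a1d* (28.9 and 240) also ranked higher there. Reads of such copies can be split among them, which was not measured here, so the single values are uncertain. On the death-promoting side, *Bcl2l11* had means of 1645 and 966 (percentiles 83.6 and 82.1) and *Bax* of 1523 and 652 (percentiles 82.4 and 76.2). In each cell type 7 members lay at or above the 75th percentile, and 4 (Lin-) and 3 (CD11b+) did when ranked among genes with a mean of at least 10.

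Genes can be compared with each other only per length. Divided by the merged exon length, *Myc* led the Lin- table with 3875 normalized counts per kb, followed by *Mcl1* (1949), *Bax* (1757), *Max* (1426), *Bcl2* (890), *Bcl2l1* (369), *Bcl2l11* (239), *Mycl* (164), *Mycn* (65.3) and *Bcl2a1b* (1.41). In CD11b+ cells *Mcl1* led with 1748 per kb, ahead of *Myc* (953), *Max* (918) and *Bax* (752), and *Bcl2* stood at 71.3 per kb. With a single pooled value per gene, no pair of neighbours in either order can be tested against its spread.

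**Figure D1:**
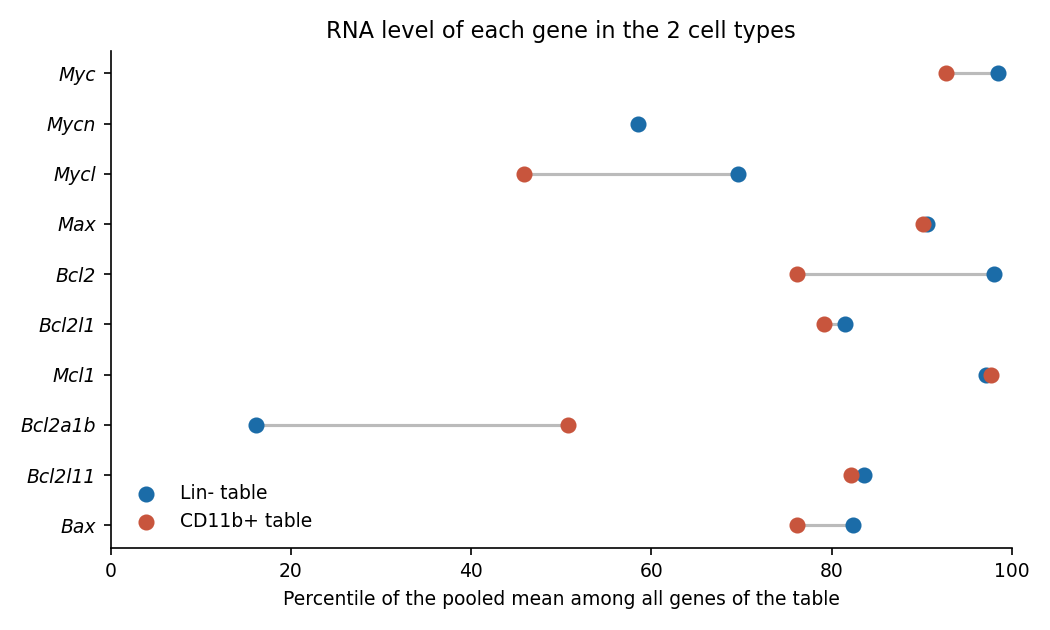
RNA level of each gene as the percentile (horizontal axis, 0 to 100) of its pooled mean among all genes of the Lin- table (blue) and the CD11b+ table (red). *Myc*, *Max* and *Mcl1* lie above the 90th percentile in both tables, *Bcl2* lies at 98.0 and 76.2, and *Mycn* has no CD11b+ point.

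IGF2BP3 peaks were found on 6 of the 10 genes in each cell type, counting any filtered peak in any library. In Lin- cells these were *Myc*, *Max*, *Bcl2*, *Mcl1*, *Bcl2l11* and *Bax*, where 26.5% of all genes in the table had such a peak. In CD11b+ cells they were *Myc*, *Max*, *Bcl2*, *Bcl2l1*, *Mcl1* and *Bcl2l11*, against 25.6% of all genes. Highly expressed genes give peaks more often, and among genes with a mean of at least 500 the shares were 66.5% in Lin- and 60.9% in CD11b+ cells, where 6 of 8 and 6 of 7 members had one. With a peak required in at least 2 biological libraries, all 6 remained in Lin- cells (13.7% of all genes, and 37.7% of those with a mean of at least 500). In CD11b+ cells *Bcl2l1* dropped out and 5 stayed (10.2% and 29.5%). *Mycn*, *Mycl* and *Bcl2a1b* carried no peak in any of the 10 libraries, which does not show that they were unbound. *Mycl* is 1 of the 8 Lin- members with a mean of at least 500.

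The Lin- libraries held from 4040 to 10042 filtered peaks, the CD11b+ libraries from 7085 to 10054. The number of sequenced reads behind them is unknown, and a peak in these lists held at least 3 reads. The 10 genes took 59 of 41132 Lin- peaks and 54 of 33246 CD11b+ peaks. The smInput filter had removed 2 peaks from these genes, both on *Bcl2* in Lin- cells. Before it, Lin- libraries held from 5455 to 11606 peaks over all genes and CD11b+ libraries from 8566 to 11771. The 10 inputs together had 6 peaks on the 10 genes, and each input held from 217 to 1885 peaks over all genes. The technical libraries of Lin- cells were the shallowest by peaks (4040, 6494 and 4510).

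**Figure D2:**
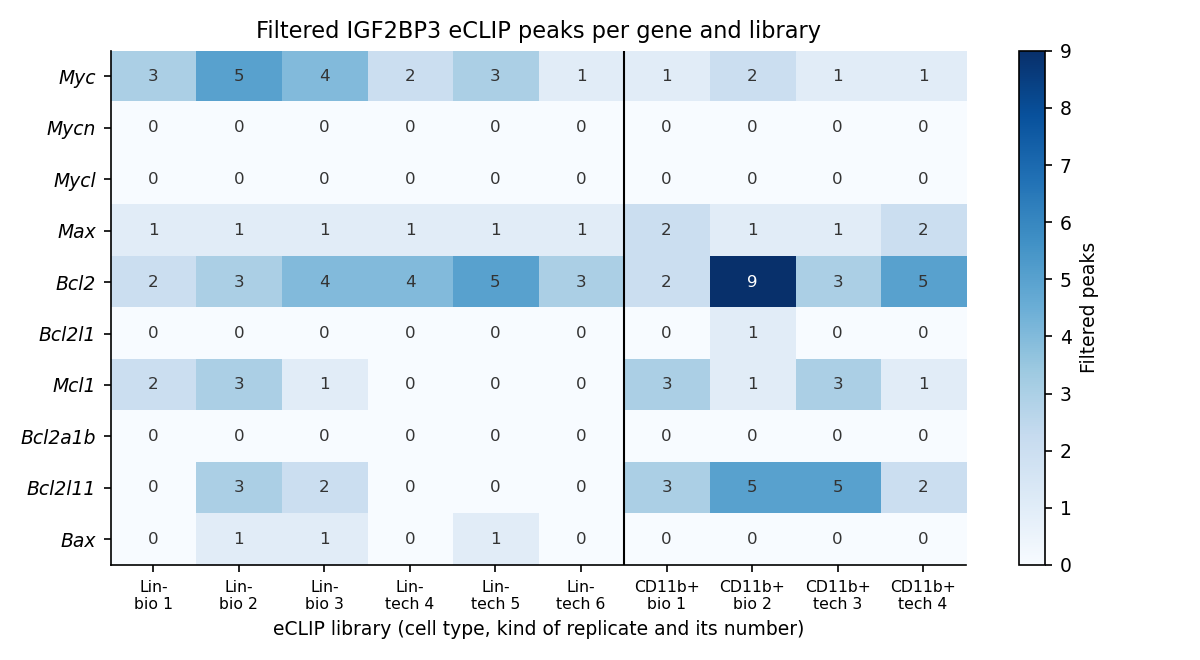
Number of filtered IGF2BP3 eCLIP peaks (cell value and shade) for each gene (rows) in each eCLIP library (columns, bio for biological and tech for technical replicates). *Myc*, *Max* and *Bcl2* have at least 1 peak in all 10 libraries, and *Mycn*, *Mycl* and *Bcl2a1b* have none.

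*Myc* (ENSMUSG00000022346, mm10 chr15:61985391-61990374, plus strand) carried 18 Lin- and 5 CD11b+ peaks. The 6 Lin- libraries had 3, 5, 4, 2, 3 and 1 peaks and the 4 CD11b+ libraries 1, 2, 1 and 1. Per 1000 filtered peaks of a library, the biological Lin- libraries gave 0.408, 0.498 and 0.461 and the CD11b+ ones 0.117 and 0.199, so the groups did not overlap. The means were 0.455 ± 0.045 (SD, n = 3) and 0.158 ± 0.058 (SD, n = 2), with p = 0.1 by the two-sided exact permutation test, the smallest p that 3 libraries against 2 allow. Of 9290 genes with a peak in a biological library, 9.34% were separated in this direction. The *Myc* RNA level also ranked higher in Lin- cells, and the part of RNA level in the difference was not tested.

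The 23 *Myc* peaks merged into 6 sites, and the 4 reproducible ones (peaks in at least 2 biological libraries) lay on the 4 splice sites of its longest annotated transcript, which has 3 exons. Without the second Lin- library 2 of these 4 sites stayed reproducible, those at the end of exon 1 and the start of exon 3. The lines below show the 15 bases on either side of each junction in mm10, with the first or last 2 bases of the intron in capitals.
Myc site 1, end of exon 1, chr15:61985937-61985966: gcgttggaaaccccgGTaagcacagatctg
Myc site 4, start of exon 2, chr15:61987492-61987521: ctgtgccccctccAGcagacagccacgacg
Myc site 5, end of exon 2, chr15:61988264-61988293: ccagcagcgactctgGTaagctaccccatt
Myc site 6, start of exon 3, chr15:61989331-61989360: cttcctcccttacAGaagaagagcaagaag

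The acceptor of exon 3 was the strongest. The merged site covered chr15:61989286-61989367, and its summit lay 11 bases before the exon. It held 80, 30, 58, 43, 14 and 29 reads in the 6 Lin- libraries and 6, 15, 4 and 0 in the 4 CD11b+ libraries. All but the lowest Lin- value exceeded every CD11b+ value, and the lowest (14, in a technical library) fell just under the highest CD11b+ one (15). Per 10000 reads in a library's peaks, the lowest Lin- value was 1.03, in a technical library, and the highest CD11b+ value 0.93. The site was singled out as the strongest, and how often sites of all genes stand apart in this way was not counted. In the first Lin- library, where the site held the most reads, its 80 reads were exceeded by 105 of 7361 peaks. In the second Lin- library, where it held 30 reads, 1062 of 10042 peaks exceeded 33 reads. The acceptor of exon 2 held 33, 12, 0, 11, 4 and 0 reads in Lin- cells and 5 in 1 CD11b+ library. The donor of exon 2 had 8, 6 and 7 reads in 3 Lin- libraries and 5 in 1 CD11b+ library, and the donor of exon 1 had 4, 9 and 4 reads in the 3 biological Lin- libraries and no CD11b+ peak. Of all *Myc* peaks, 16 of 18 in Lin- and 5 of 5 in CD11b+ cells had their summit within 50 bases of a splice site. For the peaks of all genes the shares were 51.4% and 14.5%. The *Myc* peaks repeat the same sites over several libraries, so they are not independent. No smInput library had a peak on the gene, but each input held only from 217 to 1885 peaks over all genes, so this says little. The remaining pair of sites, in the first intron, came from 1 library each.

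*Max* (ENSMUSG00000059436, chr12:76937269-76962201, minus strand) had 1 site that appeared in every library. It covered chr12:76962092-76962190 in the 5′ UTR, with its summit 49 bases from the annotated start of the gene, and it and the *Myc* exon 3 acceptor were the only 2 sites of the 46 on these genes that were reproducible in both cell types. It held 11, 55, 28, 9, 33 and 22 reads in Lin- cells and 34, 12, 32 and 6 in CD11b+ cells, and the ranges overlapped. The 30 bases around its summit (chr12:76962137-76962166, minus strand), with alternating G and T over at least 4 bases in capitals, show the repeat it sits on.
Max site 1: tgaGTGTGTGTGagtgagtgagcgagtgag

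Another 2 *Max* sites came from 1 CD11b+ library each, in an intron and in the 3′ UTR. The biological peak rates of *Max* were 0.117 ± 0.018 (SD, n = 3) in Lin- and 0.167 ± 0.096 (SD, n = 2) in CD11b+ cells per 1000 peaks, a difference within the spread (p = 0.5, two-sided exact permutation test).

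*Bcl2* (ENSMUSG00000057329, chr1:106538178-106714274, minus strand) had the most peaks of the 10 genes over all libraries, 21 in Lin- and 19 in CD11b+ cells, but in the biological Lin- libraries its mean rate was below that of *Myc* (0.344 against 0.455 per 1000 peaks). The Lin- libraries had 2, 3, 4, 4, 5 and 3 and the CD11b+ libraries 2, 9, 3 and 5. Of the genes with any Lin- peak, 3.35% had at least as many, and 3.64% in CD11b+ cells. These counts are not divided by gene length. *Bcl2* spans 176097 bases, against 51061 for *Bcl2l1*, the next longest of the 10 genes, and 4984 for *Myc*. The rates of the biological libraries were 0.344 ± 0.102 (SD, n = 3) and 0.565 ± 0.467 (SD, n = 2) per 1000 peaks and overlapped (p = 0.7, two-sided exact permutation test). Beside these rates, the *Bcl2* RNA mean stood at percentile 76.2 in the CD11b+ and 98.0 in the Lin- table.

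All 40 *Bcl2* peaks were intronic, and none lay within 50 bases of a splice site. They merged into 14 sites spread over 116287 bases of the long intron, 5 of them seen in both cell types and 7 in a single library. On the transcript strand, 9 of the 14 sites held GTGTGT or TGTGTG, 3 held ACACAC or CACACA, and none held both. The 30 bases around the summits of the 4 sites with the most libraries are given with alternating G and T, or A and C, over at least 4 bases in capitals.
Bcl2 site 1, chr1:106700387-106700416: CACACgcgCACACgCACACACACACACtaa
Bcl2 site 2, chr1:106682231-106682260: TGTGTGTGagCACACccactcacgcaTGTG
Bcl2 site 5, chr1:106620030-106620059: GTGTGTGTGTGTGTGTGTcagagggtagaa
Bcl2 site 6, chr1:106619917-106619946: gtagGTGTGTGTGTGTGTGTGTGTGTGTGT

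Site 2 was found in every Lin- library, with 9, 33, 14, 9, 7 and 9 reads, and in 2 CD11b+ libraries, with 21 (over 2 peaks) and 12. Sites 5 and 6 lie next to each other and were found in every CD11b+ library. Site 5 held 12, 18, 18 and 21 reads in CD11b+ cells and 9 and 7 in 2 Lin- libraries. Per 10000 reads in a library's peaks, 1 of these Lin- libraries (1.96) lay above 2 CD11b+ libraries (1.10 and 1.12), so the scaled values overlapped. Site 6 held 6, 17, 11 and 7 reads in CD11b+ cells, and no Lin- library had a peak there. Site 1, the CA-rich one, held 20, 4 and 17 reads in 3 CD11b+ libraries and 8, 11, 4 and 10 in 4 Lin- libraries. It was the only 1 of the 46 sites that overlapped smInput peaks, in 2 of the Lin- inputs, the first and the fourth. The filter took the *Bcl2* peaks of the first Lin- eCLIP library from 3 to 2 and of the fourth from 5 to 4. These are the 2 Lin- libraries with no value at site 1, so that lack does not show an absence of reads.

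**Figure D3:**
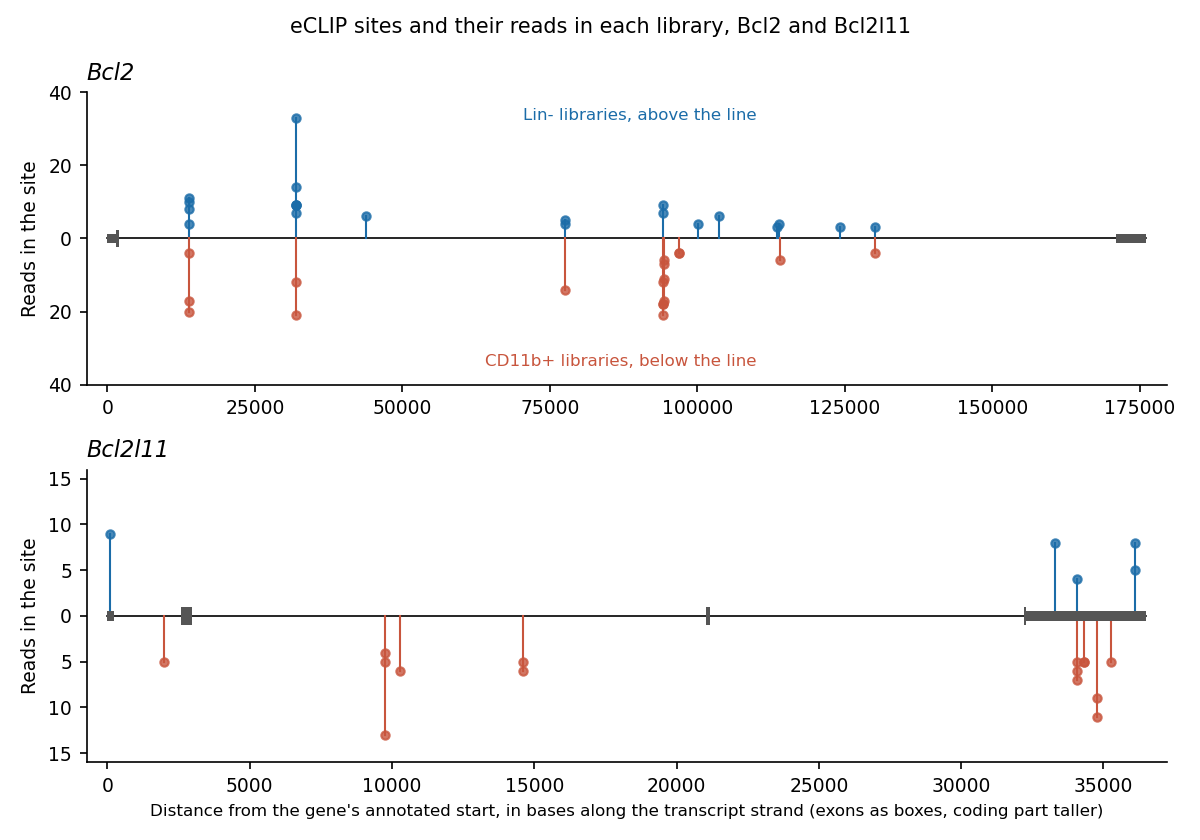
Sites of *Bcl2* and *Bcl2l11* along each gene, as distance in bases from the annotated start (horizontal axis), with exons as boxes. Each point is 1 library's reads summed over its peaks at the site, Lin- above the line and CD11b+ below; the *Bcl2* sites lie inside the long intron, and the CD11b+ points of *Bcl2l11* lie in its introns and last exon.

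*Mcl1* (ENSMUSG00000038612, chr3:95658788-95663176, plus strand) had similar numbers of peaks in the 2 cell types but none in common. The Lin- libraries had 2, 3, 1, 0, 0 and 0 peaks, all of them biological, and the CD11b+ libraries 3, 1, 3 and 1. The 5 Lin- sites lay between 217 and 924 bases from the gene start, in the first exon and first intron. The 4 CD11b+ sites lay between 1254 and 2910 bases, in the second intron and the 3′ UTR. Each cell type had 1 reproducible site, and both are shown by the junction next to them, with the intron's terminal bases in capitals.
Mcl1 site 4, end of exon 1, chr3:95659473-95659502: agacggccttccaggGTaagcggcgcccgg
Mcl1 site 7, start of exon 3, chr3:95660692-95660721: ttttttgttttctAGgatgggtttgtggag

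Site 4 had 6 and 3 reads in 2 biological Lin- libraries, and site 7 had 11 and 10 reads in the 2 biological CD11b+ libraries. No peak of the gene held more than 12 reads. The separation of the sites was noticed in the data, and no test was made of it. The rates were 0.229 ± 0.099 (SD, n = 3) and 0.226 ± 0.179 (SD, n = 2) per 1000 peaks (p = 1, two-sided exact permutation test).

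**Figure D4:**
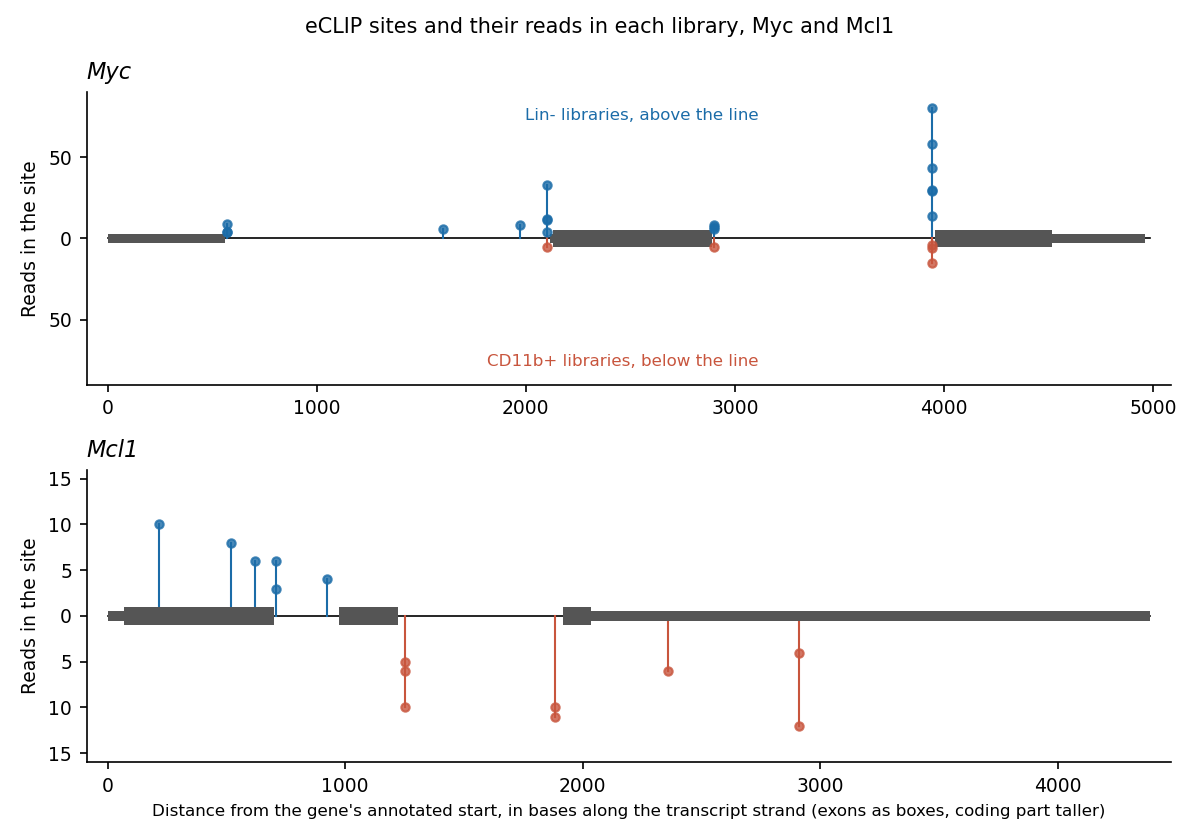
Sites of *Myc* and *Mcl1* along each gene, as distance in bases from the annotated start (horizontal axis), with exons as boxes and the coding part taller. Each point is 1 library's reads summed over its peaks at the site, Lin- above the line and CD11b+ below; the tallest *Myc* site, up to 80 reads, stands at the start of exon 3, and the *Mcl1* sites of the 2 cell types do not overlap.

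*Bcl2l11* (ENSMUSG00000027381, chr2:128126038-128162547, plus strand) was peaked mainly in CD11b+ cells. The CD11b+ libraries had 3, 5, 5 and 2 peaks, and the Lin- libraries 0, 3, 2, 0, 0 and 0. The rates of the biological libraries did not overlap, with 0, 0.299 and 0.230 per 1000 peaks in Lin- and 0.352 and 0.497 in CD11b+ cells. The means were 0.176 ± 0.157 (SD, n = 3) and 0.425 ± 0.103 (SD, n = 2), with p = 0.2 by the two-sided exact permutation test, and 10.6% of genes were separated in this direction. The order turned with a CLIPper p below 0.001, where Lin- exceeded CD11b+ by 0.035 per 1000 peaks. Of 11 sites, 8 were seen in CD11b+ and 4 in Lin- cells, and 1 in both. In CD11b+ cells 8 of the 15 peaks lay in the 3′ UTR and 7 in introns. The lines give the 30 bases around the summits of the shared site, of the second reproducible CD11b+ site and of the intronic site found in 3 CD11b+ libraries, with alternating G and T, or A and C, over at least 4 bases in capitals.
Bcl2l11 site 7, 3′ UTR, chr2:128160104-128160133: GTGTGTGcatatgcgtggtTGTGTGTGTtt
Bcl2l11 site 8, 3′ UTR, chr2:128160339-128160368: tggctctCACACACACACACACACACACAC
Bcl2l11 site 3, intron, chr2:128135793-128135822: TGTGTGTGTGTGTGTGTGTGattggggctc

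Site 7 held 6, 7 and 5 reads in 3 CD11b+ libraries and 4 in 1 Lin- library, and site 8 held 5 and 5 in the biological CD11b+ libraries. Site 3 held 13, 4 and 5 reads in 3 CD11b+ libraries. The 1 reproducible Lin- site, chr2:128162114-128162168 near the end of the 3′ UTR, held 5 and 8 reads. Reads were therefore few at every *Bcl2l11* site, 13 at most.

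*Bax* and *Bcl2l1* were sparsely peaked. *Bax* (ENSMUSG00000003873, chr7:45461697-45466898, minus strand) had 1 peak in each of 3 Lin- libraries and none in CD11b+ cells. A pair of biological Lin- libraries shared the site chr7:45466269-45466319, with 10 reads each, and its summit lay 15 bases before an exon.
Bax site 2, start of the exon, chr7:45466257-45466286: tcctctctcccccAGggcccaccagctctg

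The biological rate of *Bax* was 0.072 ± 0.062 (SD, n = 3) per 1000 Lin- peaks and 0 in CD11b+ cells (p = 0.4, two-sided exact permutation test). *Bcl2l1* (ENSMUSG00000007659, chr2:152780668-152831728, minus strand) had a single intronic peak of 14 reads, in 1 CD11b+ library, and its rate gave p = 0.4 by the same exact test. The exact test was run on 7 members, and 3 libraries against 2 leave no p below 0.1 for any of them.

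Across the 10 genes, 41 of 59 Lin- peaks (69.5%) and 37 of 54 CD11b+ peaks (68.5%) had their midpoint in an intron, against 70.7% and 82.1% of the peaks of all genes. In Lin- cells 10 of the members' peaks (16.9%) fell in 5′ UTRs, 4 (6.78%) in 3′ UTRs and 4 (6.78%) in coding sequence, against 5.39%, 3.31% and 11.3% for all genes. By the peak's 5′ end, 9 (15.3%) fell in coding sequence, against 17.7% for all genes. In CD11b+ cells 12 (22.2%) fell in 3′ UTRs and 5 (9.26%) in 5′ UTRs, against 8.28% and 1.95%. The *Max* site, counted once per library, gave 6 of the 10 Lin- and 4 of the 5 CD11b+ peaks in 5′ UTRs. *Bcl2l11* gave all 4 of the Lin- and 8 of the 12 CD11b+ peaks in 3′ UTRs. Peaks at the same site in several libraries are not independent, so the intervals that follow (Wilson, 95%) cover counting error alone.

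Two-letter repeats of G and T, read on the transcript strand, were common under these peaks. GTGTGT or TGTGTG was found in 33.9% of the Lin- peaks (interval 23.1% to 46.6%) and 53.7% of the CD11b+ peaks (40.6% to 66.3%). In the peaks of all genes the shares were 6.89% and 25.2%. Among intronic peaks alone they were 29.3% (12 of 41) and 51.4% (19 of 37) in the members, and 7.55% and 26.8% in all genes. The 12 Lin- ones all lay on *Bcl2*. Without *Bcl2*, which alone gave 26 of the members' peaks with the repeat, the members' shares over all their peaks were 21.1% and 42.9%. Of what was left, the *Max* site gave 6 of the 8 Lin- peaks, once per library, and *Bcl2l11* the other two, while *Max* and *Bcl2l11* gave 5 and 9 of the 15 CD11b+ peaks. Counted by site, 17 of the 46 held the repeat, 9 on *Bcl2*, 5 on *Bcl2l11*, 2 on *Max* and 1 on *Mcl1*. ACACAC or CACACA was found in 11.9% of the members' Lin- peaks (5.87% to 22.5%) and 11.1% of their CD11b+ peaks (5.19% to 22.2%), against 8.25% and 16.4% for all genes. Without *Bcl2* these shares were 2.63% and 5.71%, or 1 of 38 and 2 of 35 peaks. The G and T repeat was looked for after the sequences above had been read, and no test was made of it.

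Splice sites divided the members. Within 50 bases of an annotated splice site lay 40.7% of the Lin- peaks (interval 29.1% to 53.4%) and 27.8% of the CD11b+ peaks (17.6% to 40.9%), against 51.4% and 14.5% for all genes. Without *Bcl2*, which had no such peak, the members' shares were 63.2% (interval 47.3% to 76.6%) and 42.9% (28.0% to 59.1%). In Lin- cells both intervals, with and without *Bcl2*, hold the share of all genes. The distance to splice sites was looked at after the sites had been seen, and no test was made of it. *Myc*, *Mcl1* and *Bax* supplied 23 of the 24 such Lin- peaks, and *Myc*, *Mcl1* and *Bcl2l11* all 15 in CD11b+ cells, 5 from each. The 5 of *Bcl2l11* lay at the ends of an annotated intron within its 3′ UTR, next to GT repeats, and the last 2 bases of that intron are GT, where introns as a rule end in AG. Among the Lin- peaks, *Mcl1* site 1, found in 1 library, lay near the end of an annotated intron whose last 2 bases are GG. *Max* and *Bcl2* gave none in either cell type.

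**Figure D5:**
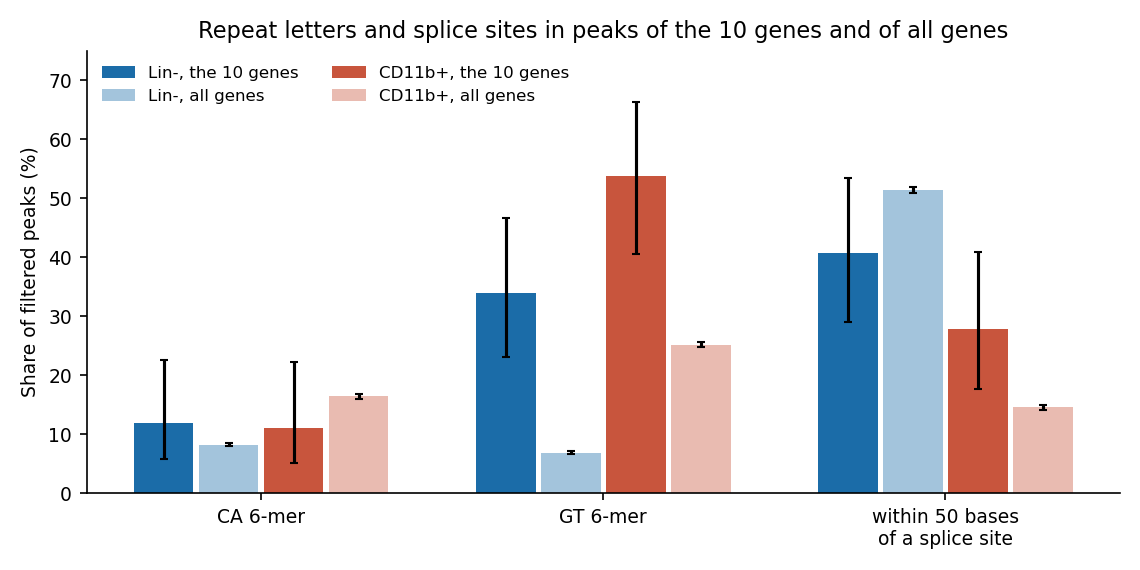
Share of filtered peaks (vertical axis, percent) that hold ACACAC or CACACA (CA 6-mer), hold GTGTGT or TGTGTG (GT 6-mer), or have their summit within 50 bases of an annotated splice site, for the 10 genes and for all genes. Error bars are 95% Wilson intervals of counting error; the GT 6-mer stands at 33.9% and 53.7% in the 10 genes and at 6.89% and 25.2% in all genes.

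The partners and targets of MYC were read from lists. These lists and those of the next paragraph were chosen with earlier results of these data known, so their counts are a description. A reproducible site was found on 9.82% of all Lin- genes and 7.8% of all CD11b+ genes. Among genes with a mean of at least 500, a reproducible site was found on 26.4% and 22.4%. Of 9 other genes of the MYC/MAX network, 4 had one in Lin- cells (*Mnt*, *Mga*, *Mxi1* and *Mlxip*) and 1 in CD11b+ cells (*Mlxip*). In each cell type 8 of the 9 had a mean of at least 500. Peak totals of the listed genes, here and below, cover 6 Lin- and 4 CD11b+ libraries. How many of all genes split as unevenly between the cell types was not counted. *Mga*, a MAX partner that represses, had 21 Lin- peaks and 1 CD11b+ peak at means of 5425 and 1237 normalized counts. *Mlxip*, a partner of MLX, had 14 and 15 peaks at means of 5248 and 2404. Of 12 MYC target genes, 7 had a reproducible site in Lin- cells and 1 (*Eif4e*) in CD11b+ cells, where 11 and 10 of them had a mean of at least 500. Nucleolin (*Ncl*) had 23 Lin- peaks and 0 CD11b+ peaks at means of 26415 and 6797, *Npm1* 25 and 1 at 19090 and 5081, and *Nop56*, a ribosomal RNA processing factor, 24 and 2 at 4504 and 2036. The median percentile of these targets was 97.7 in the Lin- and 91.1 in the CD11b+ table. The genes with a mean of at least 500 are therefore not matched to these targets in level.

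Of 13 other BCL2 family genes, 3 had a reproducible site in Lin- cells (*Bcl2l2*, with a mean of only 0.684 there, *Pmaip1* and *Bmf*) and 2 in CD11b+ cells (*Bak1* and *Bid*). The shares of all genes were 9.82% and 7.8%. With a mean of at least 500 these were 2 of 6 and 2 of 5 genes, beside 26.4% and 22.4% of all such genes. *Pmaip1*, which encodes the BH3-only protein NOXA, had 10 Lin- peaks and no CD11b+ peak at means of 2040 and 556. *Bmf*, another BH3-only gene, had 4 in each at 615 and 678. *Bak1*, the relative of *Bax*, had 2 Lin- and 5 CD11b+ peaks at means of 4035 in both tables, and *Bid* 0 and 7 at 2894 and 1873. Of 11 genes of the apoptosome, the caspases and their inhibitors, 1 had a reproducible site in each cell type, *Htra2* in Lin- and *Xiap* in CD11b+ cells. This stands beside 9.82% and 7.8% of all genes. With a mean of at least 500 it was 1 of 10 in each cell type, beside 26.4% and 22.4% of all such genes. The caspase inhibitor *Xiap* had no Lin- peak and 18 CD11b+ peaks at means of 3412 and 1646, and *Apaf1*, the scaffold of the apoptosome, 1 and 9 at 3523 and 2402. *Mnt*, *Mxi1*, *Eif4e*, *Bcl2l2* and *Htra2* are named after their values were seen.

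The genes whose peak rate over the 10 libraries was most like that of *Bcl2* were *Foxp1* (Pearson r = 0.84, 64 Lin- and 60 CD11b+ peaks), *2900076A07Rik* and *Gm23511* (both r = 0.82, 6 and 5 peaks each), among 3453 genes with a peak in at least 5 libraries. This is a description. The rates share their libraries and the division by each library's number of peaks.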

How the data were processed

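The 12 RNA-seq, 10 eCLIP and 10 smInput libraries were grouped by their labels. For RNA-seq, the authors mapped reads to mm10 with STAR 2.5.3a (version from the submitters' processing notes) and deposited 1 table per cell type. The authors' table gives the mean normalized read count, a signal scaled by their DESeq2 run over 6 libraries, and no other column of it was used. The deposited fold changes, errors, p-values and eCLIP flags compare genotypes and were not used. For eCLIP, the authors deposited CLIPper peaks per library, before and after removing peaks that overlap smInput peaks. The last field of a deposited peak name was read as the reads in the peak and the value in column 5, at most 0.05, as the CLIPper p. Their ranks ran opposite within each library (Spearman rho -0.99 to -0.97). Track lines of the files name other deduplication and calling settings for inputs than for eCLIP.

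Peaks were located by midpoint in GENCODE M21 (basic) with Python 3.11.15, NumPy 2.4.6, SciPy 1.17.1, pysam 0.24.0, samtools 1.23.1 and matplotlib 3.10.9. Where an isoform differs, the order was 3′ UTR, 5′ UTR, coding sequence, other exon, intron. Peaks of all libraries that overlapped by at least 1 base on a strand were merged into sites. Coordinates count from 1 and sequences are those of GRCm38. Peak IDs matched the annotation for 99.2% (Lin-) and 99.3% (CD11b+) of filtered peaks. Peak rates were compared over biological libraries by a two-sided exact permutation test, without adjustment over the 7 members tested. Whether biological replicates came from separate animals or cultures is not stated, so p-values measure the spread between these libraries. 1 marker gene and 1 culture additive are not reported here. Members and lists were chosen with earlier results of these data known. At most 4 genes of each list are named by rule, the 2 with the most filtered peaks and the 2 with the highest mean. The functions were tested on simulated peaks. Alternatives were the input filter, a CLIPper p below 0.001, biological libraries alone, technical libraries included and peaks per library without division by its number of peaks. Others were gene assignment by position, a mean of at least 10, the longest transcript, the peak's 5′ end and a shorter motif. The rest were peaks extended by 20 bases, an overlap of 50%, a replicate block and leaving out each library.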

Additional observations from a re-analysis of the deposited data

Results flagged for a closer look

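In a check of the 4 sets of smInput values (peaks, and peaks on the 10 genes, in each cell type), 1 value passed Dixon's limit for standing apart from its group. The third CD11b+ input had 0 peaks on the 10 genes, where the other inputs of CD11b+ cells had 1 each. With counts of 0 and 1 alone, any single library that differs from the rest is set apart, so the value says little. The fifth Lin- input had 217 peaks, where the other Lin- inputs had from 1047 to 1808, and did not pass that limit.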

How the results depend on the processing

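The differences in peak rate (Lin- minus CD11b+, per 1000 filtered peaks) of *Myc*, *Bcl2l1* and *Bax* kept their direction under each alternative tried, except that *Bcl2l1* came to 0 without the library that held its peak. Their size moved with a CLIPper p below 0.001, to 0.60 from 0.30 for *Myc*, -0.086 from -0.050 for *Bcl2l1* and 0.15 from 0.072 for *Bax*. That of *Bcl2* went to -0.085 from -0.22. The *Bcl2* difference turned positive with technical libraries included (0.018), and that of *Mcl1* turned negative before the smInput filter (-0.0065), with a CLIPper p below 0.001 (-0.084) and with technical libraries (-0.13). That of *Bcl2l11* turned to 0.035 with a CLIPper p below 0.001. The cause was not tested. Counted as peaks per library, without division by its number of peaks, the *Myc* difference was 2.5 (p = 0.2, two-sided exact permutation test). That of *Mcl1* came to 0. Leaving out each biological library gave ranges of 0.26 to 0.34 for *Myc*, -0.12 to 0.017 for *Max*, -0.55 to 0.11 for *Bcl2*, -0.099 to 0 for *Bcl2l1*, -0.12 to 0.13 for *Mcl1*, -0.32 to -0.16 for *Bcl2l11* and 0.050 to 0.11 for *Bax*. Without the second CD11b+ library *Bcl2* stood at 0.11 and *Mcl1* at -0.12, without the first CD11b+ library *Max* at 0.017, and without the first or second Lin- library *Mcl1* at -0.019 and -0.032. Taking libraries of the same number as a replicate block gave 0.29 for *Myc*, -0.049 for *Max*, -0.28 for *Bcl2*, -0.050 for *Bcl2l1*, 0.059 for *Mcl1*, -0.28 for *Bcl2l11* and 0.050 for *Bax*, and changed no direction. These libraries share only a number. The count of Lin- reproducible sites, 10, ranged from 5 to 8 when a library was left out (5 without the second or the third), and leaving out 1 of 2 CD11b+ libraries gives no value. The number of members with a peak was 5 in CD11b+ cells without the second library and with a peak required in 2 biological libraries, otherwise 6, and stayed at 6 in Lin- cells. Members at or above the 75th percentile fell from 7 to 4 (Lin-) and 3 (CD11b+) when genes with a mean below 10 were left out of the ranking, since fewer low genes were then ranked. The exonic share of the members' Lin- peaks was 45.8% by the peak's 5′ end against 30.5% by its midpoint (all genes 35.2% and 28.0%). The shorter ACAC or CACA was in 39.0% of the members' Lin- and 20.4% of their CD11b+ peaks (all genes 23.9% and 24.5%). Without *Bcl2*, an alternative chosen after seeing the data, the share with ACACAC or CACACA fell to 2.63% in Lin- cells, and the share within 50 bases of a splice site rose to 63.2% and 42.9%. The number of sequenced reads is unknown, so what depth limits was not tested.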
